A study of Arabidopsis thaliana with 7 samples.

Results

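The 10 transcripts described here encode the stromal side of the chloroplast NADH dehydrogenase-like (NDH) complex and the 3 proteins of the PGR5 route, the pair of pathways that carry electrons around photosystem I. They were chosen by gene identifier from a table of 27655 genes. NDH is represented by NdhL (AT1G70760), NdhM (AT4G37925), NdhN (AT5G58260), NdhO (AT1G74880), NdhS (AT4G23890), NdhT (AT4G09350) and NdhU (AT5G21430), and the other route by PGR5 (AT2G05620), PGRL1A (AT4G22890) and PGRL1B (AT4G11960). Levels were compared between 3 libraries of wild-type (WT) Arabidopsis thaliana, accession Col-0, and 4 libraries made from the double mutant glk1 glk2 in the same accession. All plants were seedlings aged 12 days on half-strength MS medium, kept at 16 °C in long days and taken at ZT4, that is 4 h after lights on. The labels name no alleles for glk1 and glk2, and do not say whether replicates came from separate sowings, so the spread behind each p-value may be technical.

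In the light, ferredoxin reduced by photosystem I can hand its electrons back to the plastoquinone pool instead of to NADP. This cyclic flow builds a proton gradient and ATP without net NADPH, and Arabidopsis is known to do it by 2 routes. The NDH complex is a large membrane enzyme with a stromal arm: subcomplex A is built from plastid-encoded subunits and the nuclear-encoded NdhL, NdhM, NdhN and NdhO, and NdhS, NdhT and NdhU form the site where ferredoxin docks. The second route needs PGR5, a small protein on the stromal face of the thylakoid, and PGRL1, a thylakoid membrane protein that binds PGR5 and on which PGR5 depends for its stability. NdhL is known as a membrane-spanning protein, so "stromal" describes the arm rather than every subunit, and transcript levels cannot show where a protein lies. The mutated genes, GLK1 and GLK2, encode GARP-family factors that promote chloroplast development.

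PGRL1A and PGRL1B are paralogs, both on chromosome 4, and the results below turn on their difference. Their longest coding sequences, of 975 and 942 bases, were identical at 83.0% of 939 aligned bases. The longest stretch they share without a mismatch is 38 bases, shown in capitals with 12 bases on each side, from coding positions 328 to 389 of PGRL1A and 295 to 356 of PGRL1B (RefSeq, TAIR10.1).
PGRL1A: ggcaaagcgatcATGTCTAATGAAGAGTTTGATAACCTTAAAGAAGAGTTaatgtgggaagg
PGRL1B: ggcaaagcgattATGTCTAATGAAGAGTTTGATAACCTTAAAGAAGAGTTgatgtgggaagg
No stretch of 50 bases of either transcript occurred in another annotated gene, counting exact matches on both strands. The length of the reads is not given in the sources used here.

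The mutant libraries held less of both mutated transcripts but had not lost them: GLK1 averaged 27.1% of its WT level and GLK2 32.0%. Levels are TPM, a length-corrected share of each library that the authors deposited and that always sums to 1000000. The depth behind a value is therefore unknown. In TPM the median log2 fold change of the 19127 genes tested was 0.33, so a transcript at 0 in TPM lay below most others. Each value was also scaled by trimmed mean of M values (TMM), which moved that median to 0.0071. Below, "fell" and "rose" are used only where limma gave an adjusted p under 0.05 in the same direction with both scalings. The leaf markers RBCS1A, RCA and BCA1 together held 29237 to 32255 TPM in WT and 30620 to 34414 TPM in the mutant, and the 4 root markers 1708 to 2155 and 1835 to 3105 TPM. RCA had the smallest p of the leaf list (log2 fold change 0.21 in TPM, limma adjusted p = 0.102) and COBL9, at 8.31 ± 3.32 TPM (SD, n = 3) and 15.3 ± 3.71 TPM (SD, n = 4), that of the root list. BCA1 was called lower after TMM scaling only (limma adjusted p = 0.0367). COBL9 was called higher in TPM only, without overlap (log2 fold change 0.85, limma adjusted p = 0.0178), and the root list had a median of 0.56 on that scale, or 0.21 with TMM. In limma, 0 of the 3 leaf and 4 root markers were called with both scalings. The 4 flower markers held 2.12 to 2.61 TPM over all libraries, most of it SEP3. The part of tissue makeup in the results was not tested, and in whole seedlings fewer cells of a type and less RNA per cell cannot be told apart.

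Of the 10 transcripts, PGRL1A and NdhS fell and 0 rose in limma, against 2.53% of all tested genes that fell and 3.08% that rose. Unadjusted p-values under 0.05 numbered 6 in TPM, where 70.0% of all genes had one, and 7 with TMM, where 24.5% had one. All 10 passed the filter on low values in both genotypes. The median log2 fold change of the 10 was 0.096 in TPM and -0.27 after TMM scaling, against 0.33 and 0.0071 for all tested genes. In TPM alone NdhM, NdhT, PGR5 and PGRL1B were called higher, where 63.0% of all genes were. After TMM scaling alone 3 were called lower, PGRL1A, NdhS and NdhO, where 5.11% of all genes were. The WT and mutant levels did not overlap for 6 of the 10 in TPM (65.4% of all genes) and for 5 after TMM scaling (23.8% of all genes). Counts for single lists below are to be read against the same shares of all genes.

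**Figure D1:**
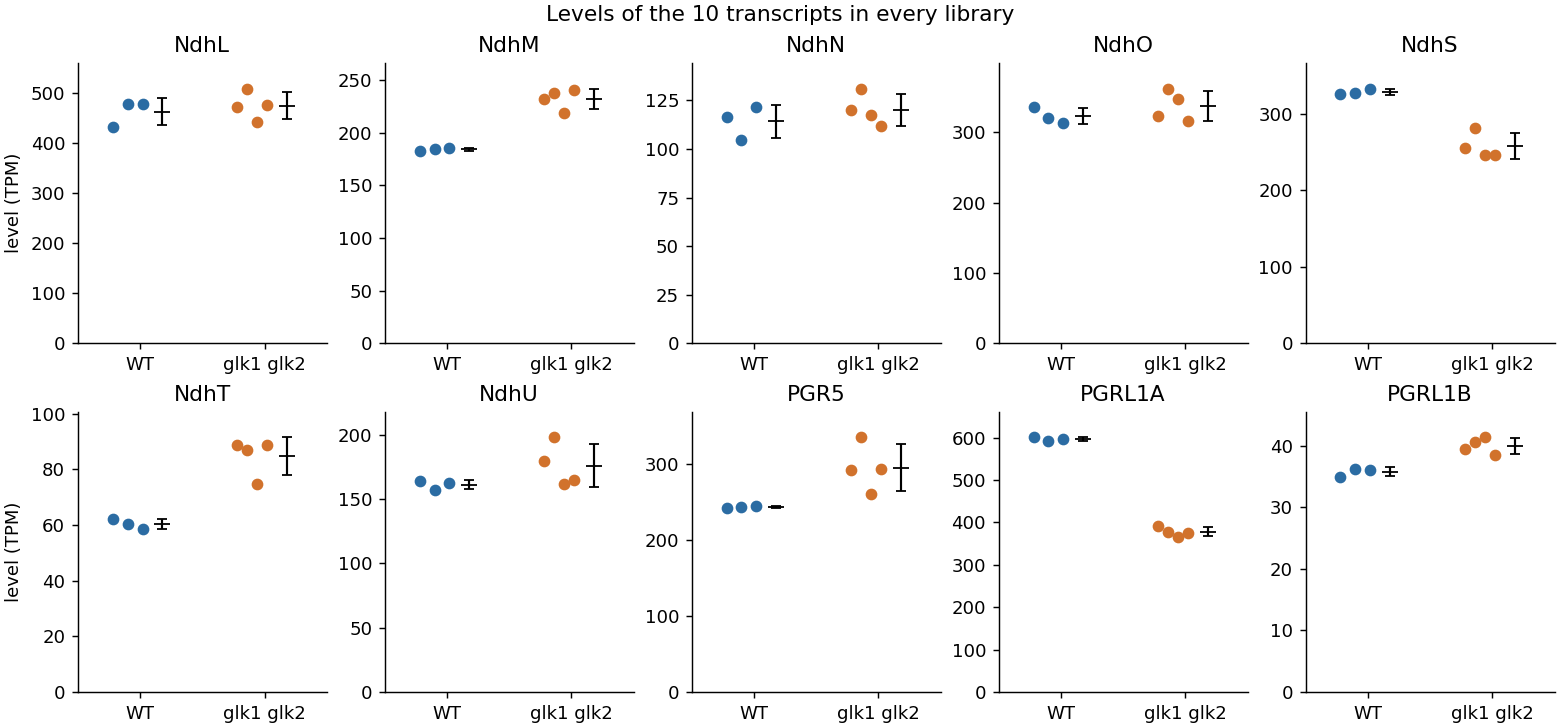
Level in TPM (vertical axes, from 0) of each of the 10 transcripts in the 3 WT libraries (blue) and the 4 glk1 glk2 libraries (orange), in replicate order, with mean and SD in black. PGRL1A and NdhS are lower in every mutant library, while the WT libraries of PGR5 lie between 242 and 245 TPM and the mutant ones between 261 and 335 TPM.

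PGRL1A was the most abundant of the 10 in WT and fell the furthest. Its level was 601, 593 and 597 TPM in WT replicates 1 to 3 and 392, 377, 366 and 376 TPM in mutant replicates 1 to 4. All 4 mutant libraries lay 201 TPM or more below the lowest WT library, and the spread within each genotype was small, 4.08 TPM in WT, and in the mutant 10.7 TPM (SD, n = 3 and n = 4). The mutant mean was 63.3% of WT in TPM and 49.1% after TMM scaling. The log2 fold change was -0.66 ± 0.05 in TPM (SE, limma adjusted p = 1.095e-04) and -1.03 ± 0.07 after TMM scaling (adjusted p = 3.442e-05). An exact two-sided permutation test over the 35 divisions of the libraries gave p = 0.0286, the smallest it can give. In TPM, 1.30% of all tested genes had a lower log2 fold change than PGRL1A.

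PGRL1B, the second gene for the same protein, was not called with both scalings. It had 34.95, 36.3 and 36.1 TPM in WT, and in the mutant 39.5, 40.7, 41.4 and 38.5 TPM. Its mutant libraries all lay above the WT ones in TPM and all below them after TMM scaling, where they held 34.3 to 38.2 against 40.3 to 42.3 in WT, so its direction depends on the scaling. The log2 fold change was 0.16 ± 0.06 in TPM (limma adjusted p = 0.0318) and -0.20 ± 0.06 after TMM scaling (adjusted p = 0.0711). The call in TPM was lost in 5 of the 7 limma fits that left out 1 library, those without WT replicate 1, 2 or 3 or mutant replicate 1 or 3 (adjusted p = 0.0546 to 0.101), and with the replicate block (0.0752). A ratio within a library is free of that choice. PGRL1A exceeded PGRL1B 17.2, 16.4 and 16.5 times in the WT libraries and 9.93, 9.26, 8.85 and 9.77 times in the mutant libraries, with no overlap. PGRL1B accordingly made up 5.65% ± 0.14 (SD, n = 3) of the summed PGRL1 level in WT, against 9.58% ± 0.46 (SD, n = 4) in glk1 glk2. The sum of both paralogs was 633 ± 3.44 TPM in WT, and in the mutant 418 ± 10.07 TPM.

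PGR5 itself was not called with both scalings. It had 242, 244 and 245 TPM in WT, and 292, 335, 261 and 293 TPM in the mutant, where replicate 2 was the highest and replicate 3 the lowest. The mutant libraries lay above WT in TPM, by 0.27 ± 0.08 on the log2 scale (limma adjusted p = 0.0180, but 0.0503 without WT replicate 1 and 0.0545 without WT replicate 2). After TMM scaling they spanned 224 to 315 and enclosed the WT range of 279 to 287 (log2 fold change -0.095 ± 0.10, adjusted p = 0.620). The balance between PGR5 and its partner differed between the genotypes. The PGRL1A to PGR5 ratio was 2.48, 2.43 and 2.44 in WT and 1.35, 1.12, 1.41 and 1.28 in the mutant, so the mutant mean was 0.526 of the WT mean. With both PGRL1 genes summed, the ratio to PGR5 was 2.60 ± 0.026 (SD, n = 3) in WT, against 1.43 ± 0.14 (SD, n = 4) in glk1 glk2.

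**Figure D2:**
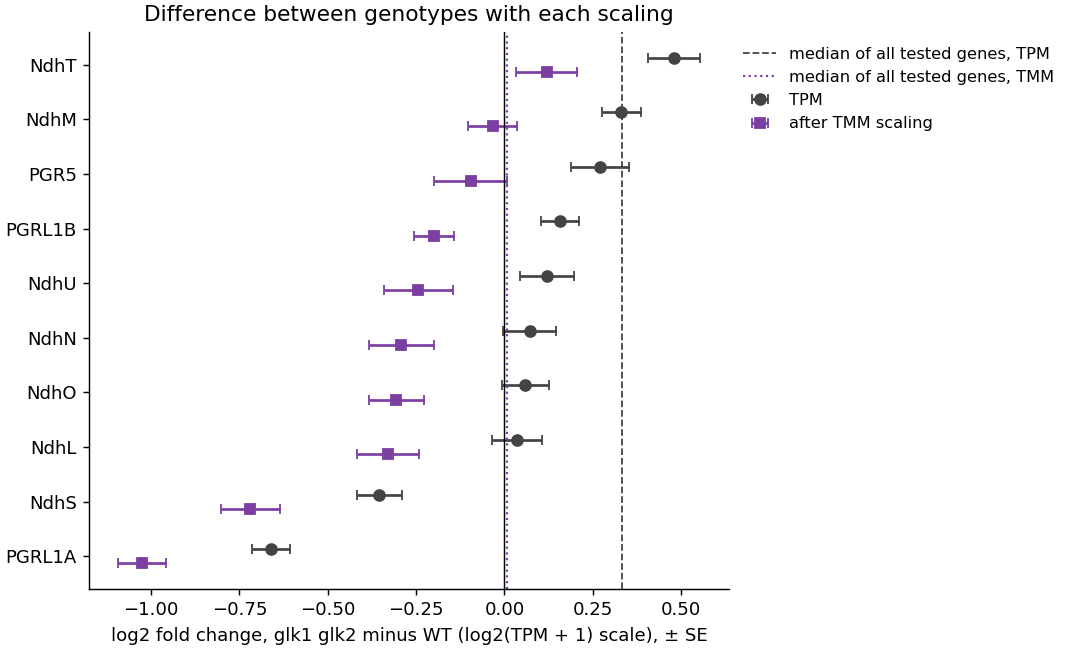
Log2 fold change, glk1 glk2 minus WT, with its SE (horizontal axis) for each of the 10 transcripts in TPM (circles) and after TMM scaling (squares), with dashed and dotted lines at the median of all tested genes. PGRL1A and NdhS lie below 0 with both scalings, and 7 of the other 8 transcripts lie above 0 in TPM and below 0 after TMM scaling.

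NdhS, the subunit known for binding ferredoxin, was the only one of the 7 NDH transcripts that fell. It had 326, 327 and 333 TPM in WT replicates 1 to 3 and 256, 282, 246 and 246 TPM in mutant replicates 1 to 4. The lowest WT library exceeded the highest mutant library, replicate 2, by 44.4 TPM. The mutant mean was 78.3% of WT in TPM and 60.9% after TMM scaling. The log2 fold change was -0.35 ± 0.06 in TPM (SE, limma adjusted p = 0.00187) and -0.72 ± 0.08 after TMM scaling (adjusted p = 0.00107), and the exact permutation p was again 0.0286, the smallest possible. NdhS (AT4G23890, TAIR10.1 chromosome 4, 12420414 to 12421464, 1 exon in the longest coding transcript) is overlapped on the opposite strand by the lncRNA gene AT4G07190 over 709 bases and by AT4G23885 over 54 bases, and 57.2% of its 50-base stretches occur in no other annotated gene. The strand setting of the authors' quantification is not given in the sources used here, so reads of NdhS and of these genes may not be separable. AT4G23885 had 19.9 ± 1.94 TPM in WT, against 27.8 ± 7.19 TPM in glk1 glk2. AT4G07190 has no value among those the authors gave, so its level is unknown.

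NdhT and NdhU, J-domain-like proteins next to NdhS, behaved otherwise. NdhT had 62.0, 60.3 and 58.7 TPM in WT, and in the mutant 88.6, 87.0, 74.7 and 88.8 TPM. Every mutant library was above WT, and replicate 3 stood below the other mutant libraries. Its log2 fold change of 0.48 ± 0.07 in TPM (limma adjusted p = 9.224e-04) was the highest of the 10, but after TMM scaling it was 0.12 ± 0.09 (adjusted p = 0.440) and the groups overlapped. NdhT is therefore not counted as having risen, and its TPM value lay 0.15 above the median of all genes on the log2 scale. NdhU had 164, 157 and 163 TPM in WT, and in the mutant 179, 198, 162 and 165 TPM, and the groups overlapped with both scalings (log2 fold change 0.12 ± 0.08 and -0.24 ± 0.10). For NdhU alone of the 10, the value of WT replicate 1 had to be reassigned, since that column is written in another gene order than the identifiers. Read row by row the table gives 42.7 TPM for that library.

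The mix of the 3 docking-site transcripts therefore differed between the genotypes. NdhS made up 59.1%, 60.0% and 60.0% of their sum in the WT libraries and 48.8%, 49.7%, 51.0% and 49.2% in the mutant libraries. The share of NdhT was 11.0% ± 0.34 (SD, n = 3) in WT, against 16.4% ± 1.17 (SD, n = 4) in glk1 glk2, and that of NdhU 29.3% ± 0.38 and 34.0% ± 0.84. None of these shares overlapped between genotypes, but they are parts of the same sum. A lower share of NdhS by itself raises the rest, and the levels of NdhU overlapped with both scalings. NdhS exceeded NdhT 5.45 ± 0.21 times in WT and 3.04 ± 0.26 times in the mutant, and NdhU 2.04 ± 0.042 times and 1.46 ± 0.049 times.

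**Figure D3:**
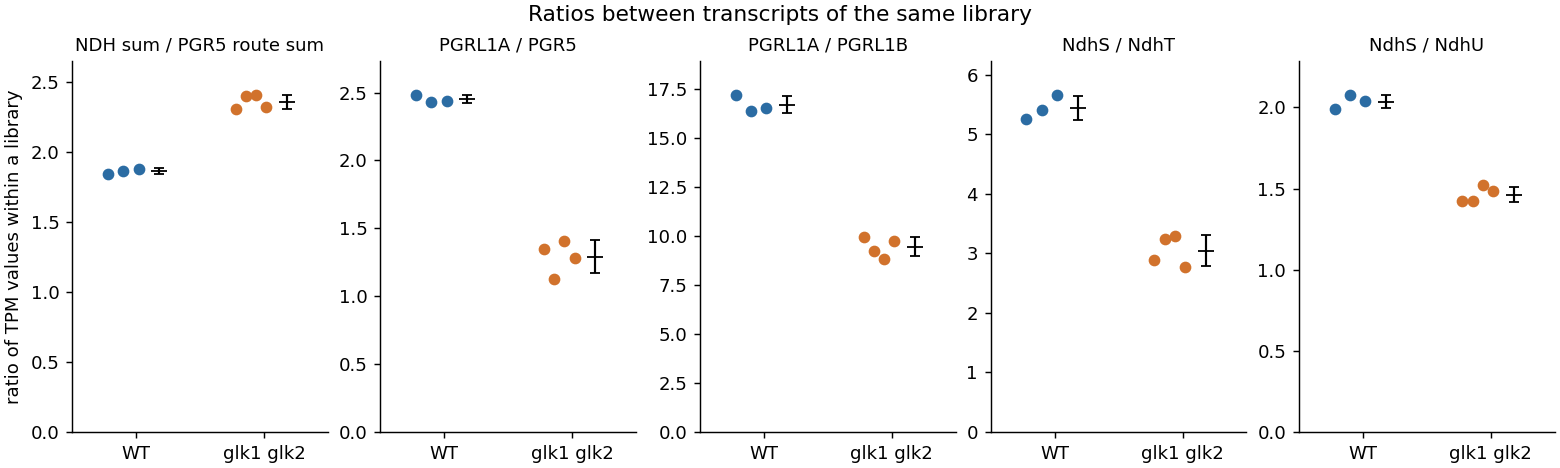
Ratios of TPM values within each library (vertical axes, from 0) for WT (blue, n = 3) and glk1 glk2 (orange, n = 4), with mean and SD in black. The groups do not overlap in any of the 5 ratios: the NDH sum over the PGR5 route sum is higher in the mutant, and the ratios of PGRL1A to PGR5 and PGRL1B and of NdhS to NdhT and NdhU are lower. Each of the 5 holds PGRL1A or NdhS, the transcripts that fell. The ratio of PGR5 to PGRL1B, not drawn, overlapped (6.73 to 6.93 in WT, 6.29 to 8.24 in the mutant). How often ratios of other genes separate the genotypes was not tested.

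None of the 4 subcomplex A transcripts was called with both scalings in limma (TPM alone called 1 and TMM alone 1, while 1 and 3 had unadjusted p-values under 0.05). NdhL, the membrane-spanning subunit, had 432, 477 and 478 TPM in WT, and in the mutant 472, 508, 442 and 475 TPM. The genotypes overlapped in part in TPM, with a log2 fold change of 0.036 ± 0.07 (limma adjusted p = 0.658), and all mutant libraries were lower after TMM scaling (-0.33 ± 0.09, adjusted p = 0.0572). NdhL lies over a lncRNA gene, AT1G09193, and over AT1G70770 on the opposite strand, and 28.1% of its 50-base stretches occur in no other annotated gene. AT1G70770, which overlaps NdhL over 587 bases, averaged 37.9 ± 2.11 TPM in WT against 53.5 ± 5.46 TPM in glk1 glk2, far below NdhL itself. AT1G09193 overlaps it over 830 bases and has no value among those the authors gave, so its level is unknown.

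NdhO had 336, 321 and 314 TPM in WT, and in the mutant 324, 362, 347 and 317 TPM. The genotypes overlapped in TPM (log2 fold change 0.059 ± 0.07, limma adjusted p = 0.442), and NdhO was called lower after TMM scaling only (-0.31 ± 0.08, adjusted p = 0.0459). That call was lost with TMM factors computed from all genes of the table (adjusted p = 0.0510), and over the alternatives this p ran from 0.00300 to 0.199. NdhN had 117, 105 and 121 TPM in WT, and in the mutant 120, 131, 117 and 112 TPM, overlapping with both scalings (log2 fold change 0.072 ± 0.07 and -0.29 ± 0.09). Its ends overlap the opposite-strand genes EMB3143 (AT5G58250) over 211 bases and ABCB25 over 112 bases. EMB3143 fell to 80.5 ± 7.49 TPM (SD, n = 4) from a WT mean of 134 ± 14.8 TPM (SD, n = 3), with limma adjusted p = 5.821e-04 in TPM and 3.439e-04 after TMM scaling. ABCB25 went the other way in TPM, from 22.8 ± 1.36 in WT to 34.2 ± 2.72 in the mutant (limma adjusted p = 6.782e-04). After TMM scaling ABCB25 was not called (adjusted p = 0.126). What either gene contributes to the NdhN value was not tested.

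NdhM differed from the other 3. It had 183, 184 and 186 TPM in WT, and in the mutant 232, 238, 219 and 241 TPM, so that all mutant libraries were above WT in TPM. The log2 fold change of 0.33 ± 0.06 (limma adjusted p = 0.00135) equalled the median of all tested genes to within 0.0019, and after TMM scaling it was -0.034 ± 0.07 (adjusted p = 0.806). Within libraries, the NdhM to NdhL ratio was 0.423, 0.386 and 0.389 in WT and 0.491, 0.468, 0.495 and 0.507 in the mutant. NdhM to NdhN was 1.62 ± 0.12 in WT and 1.94 ± 0.15 in the mutant, also without overlap.

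Summed over its 7 transcripts, the NDH group held 1619, 1631 and 1654 TPM in WT. In the mutant it held 1671, 1807, 1607 and 1643 TPM, and the genotypes overlapped in TPM. Sums were taken in TPM only. The median log2 fold change of the 7 was 0.072 in TPM but -0.29 after TMM scaling, so the overlap does not show an unchanged NDH level. The PGR5 route held 879, 874 and 878 TPM in WT, and in the mutant 723, 753, 668 and 708 TPM, with no overlap. The NDH sum was therefore 1.84, 1.87 and 1.88 times the PGR5 route sum in the WT libraries and 2.31, 2.40, 2.41 and 2.32 times in the mutant libraries. The mutant ratio was 1.27 times the WT ratio, and 1.14 times it with geometric means, which weigh each transcript equally. PGRL1A holds most of the PGR5 route sum in both genotypes, and in TPM it alone lowers that sum. The rest of the route, PGR5 and PGRL1B, averaged 244 and 35.8 TPM in WT and 295 and 40.0 TPM in the mutant. After TMM scaling they stood at 94.2% and 86.8% of WT, and PGRL1A at 49.1%. PGRL1A was the only transcript of the route that fell, so the ratio is not a change of equal size across the route. As a score over chosen transcripts the ratio was given no test.

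The order of levels also differed. In WT it ran from PGRL1A through NdhL, NdhS, NdhO, PGR5, NdhM, NdhU, NdhN and NdhT to PGRL1B, and NdhS and NdhO, at 328 ± 3.62 and 324 ± 11.4 TPM (SD, n = 3), were the only neighbours whose ranges met. In the mutant NdhL stood first and PGRL1A second, and NdhS moved from rank 3 to rank 5. There NdhO and PGR5 overlapped, as did PGR5 and NdhS. In WT, 99.2% of all tested genes had a lower level than PGRL1A and 79.9% a lower level than PGRL1B.

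**Figure D4:**
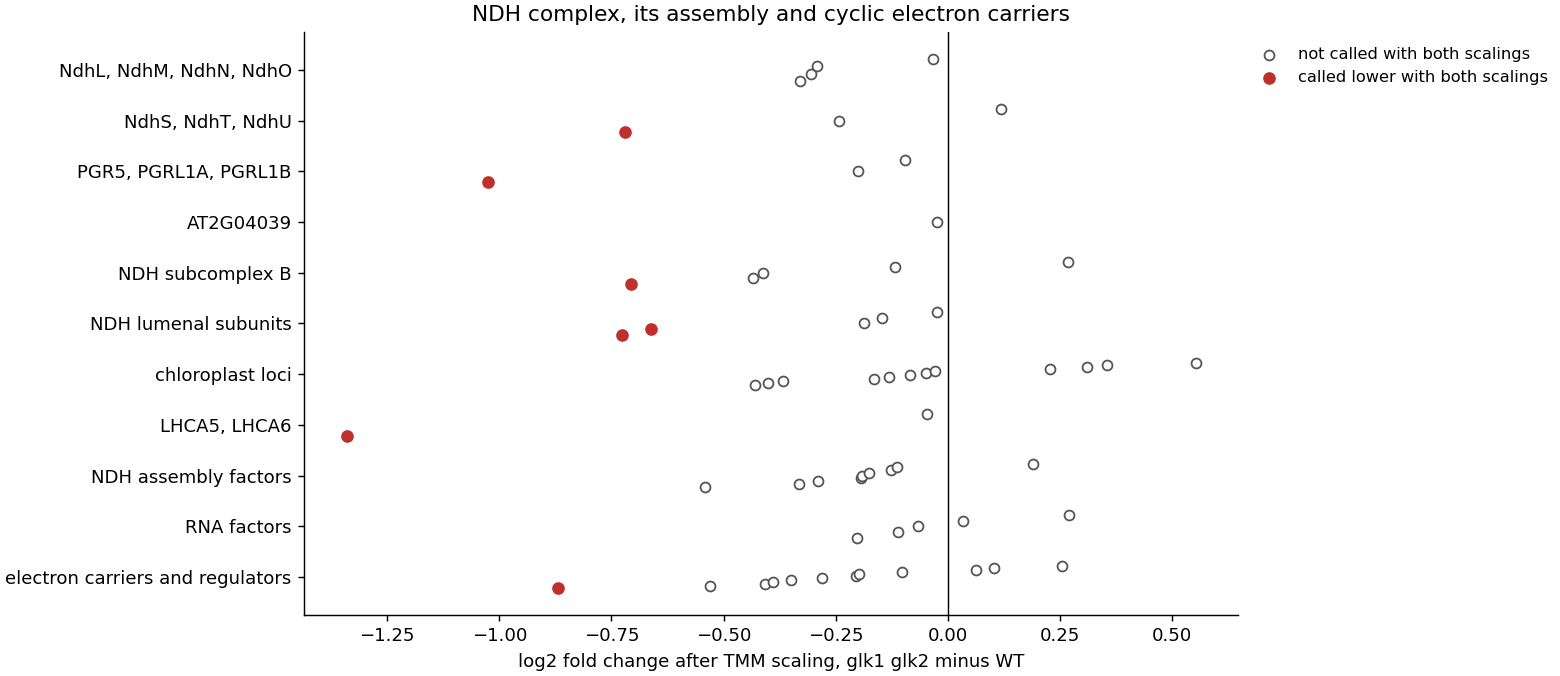
Log2 fold change after TMM scaling, glk1 glk2 minus WT (horizontal axis), for each tested transcript of the NDH complex, its assembly and RNA factors and the electron carriers, by list (vertical axis). Filled points were called lower with both scalings and open points were not. The filled points are PGRL1A, NdhS, PnsB3, PnsL1, PnsL4, LHCA6 and FD2, and 0 transcripts were called higher.

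The other parts of the NDH complex were mixed as well. Of 5 transcripts of subcomplex B, which sits beside the membrane arm, PnsB3 fell. It averaged 131 ± 10.9 TPM in WT (SD, n = 3) and 103 ± 6.70 TPM in glk1 glk2 (SD, n = 4), and its log2 fold change was -0.34, or -0.71 with TMM. Of 5 lumenal subunits, PnsL4, an immunophilin, fell from 90.2 ± 4.48 to 69.9 ± 5.39 TPM and PnsL1, a PsbP-like protein, from 234 ± 12.3 to 191 ± 25.0 TPM. Limma adjusted p-values in TPM and after TMM scaling were 0.00429 and 0.00215 for PnsB3, 0.00281 and 0.00167 for PnsL4, and 0.0316 and 0.0137 for PnsL1. The call of PnsL1 was lost without WT replicate 2 (TMM-scaled limma adjusted p = 0.0637) or 3 (0.0577) and with the replicate block (0.0626). Where WT replicate 1 was read as deposited, the calls of PnsL1 (0.0761) and PnsB3 (0.607) were both lost. The median log2 fold change in TPM was -0.050 for subcomplex B and 0.18 for the lumenal subunits, against 0.072 for the 7 NDH transcripts above. AT2G04039, which RefSeq annotates as a DUF2996 family protein, averaged 191 ± 2.20 TPM in WT against 243 ± 15.9 TPM in glk1 glk2. It was called higher in TPM (log2 fold change 0.34, limma adjusted p = 0.00221), and with TMM it was not called (-0.024). Of 12 chloroplast loci of the plastid-encoded part, given by identifier because the gene table used here carries no matching tags, 0 were called with both scalings in limma (2 higher in TPM alone and 0 with TMM alone, while 3 and 1 had unadjusted p-values under 0.05). The lowest p was that of ATCG01100, at 4.28 ± 1.07 and 8.80 ± 2.78 TPM. Among these loci ATCG00890 and ATCG01250 were listed as copies of the same gene, ndhB, and their reads may not be separable.

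The pair of antenna proteins known to fasten NDH to photosystem I split. LHCA6 fell to 106 ± 8.08 TPM (SD, n = 4) from 210 ± 11.5 TPM in WT (SD, n = 3), which is -0.98 on the log2 scale and -1.34 with TMM (limma adjusted p = 7.687e-05 and 4.78e-05). LHCA5 had 191 ± 7.03 and 238 ± 12.3 TPM and was called higher in TPM only (log2 fold change 0.32, limma adjusted p = 0.00253). That value lay near the median of all tested genes, 0.33. Its TMM-scaled value was -0.047 (adjusted p = 0.740). Of 9 factors that assemble the complex and 5 tested factors that process or edit the plastid ndh transcripts, 0 were called with both scalings in limma. Among the assembly factors TPM alone called 3 higher and TMM alone 2 lower, with 4 and 5 unadjusted p-values under 0.05, and among the RNA factors 1 and 0, with 1 and 1. The smallest p in TPM was that of CRR41 (20.9 ± 2.08 and 30.8 ± 2.07 TPM) and of CRR2 (5.68 ± 0.57 and 9.04 ± 0.43 TPM).

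Of 12 electron carriers and regulators of cyclic flow, FD2, the main leaf ferredoxin, fell to 2131 ± 168 TPM (SD, n = 4) from a WT mean of 3015 ± 141 TPM (SD, n = 3), and 0 rose. The log2 fold change of FD2 was -0.50 in TPM and -0.87 after TMM scaling (limma adjusted p = 0.00169 and 0.00214), but 0.051 with quantile normalization (adjusted p = 0.802), which ends the call. Of the other 11, limma called 5 higher in TPM and 2 lower after TMM scaling, where 63.0% and 5.11% of all tested genes were.

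The 250 bases before the annotated start are shown for the transcripts that fell, PGRL1A and NdhS, for PGRL1B as the paralog that was not called, and for NdhO as the only one of the 10 windows that holds CCAATC, the motif reported as frequent upstream of GLK targets. Capitals mark matches to CCAATC, to AGATTCT, a form of the GARP-family site, or to the G-box CACGTG, on either strand.
PGRL1A, chr4:12006736-12006985, plus strand: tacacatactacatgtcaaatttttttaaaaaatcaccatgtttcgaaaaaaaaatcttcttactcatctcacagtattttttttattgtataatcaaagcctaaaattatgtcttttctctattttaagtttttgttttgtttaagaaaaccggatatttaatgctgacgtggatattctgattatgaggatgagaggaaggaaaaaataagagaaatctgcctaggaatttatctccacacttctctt
PGRL1B, chr4:7177889-7178138, minus strand: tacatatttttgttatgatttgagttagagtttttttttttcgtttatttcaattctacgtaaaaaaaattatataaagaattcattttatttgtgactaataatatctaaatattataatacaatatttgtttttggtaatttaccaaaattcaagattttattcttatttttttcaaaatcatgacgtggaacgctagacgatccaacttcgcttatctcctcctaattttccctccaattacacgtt
NdhS, chr4:12421465-12421714, minus strand: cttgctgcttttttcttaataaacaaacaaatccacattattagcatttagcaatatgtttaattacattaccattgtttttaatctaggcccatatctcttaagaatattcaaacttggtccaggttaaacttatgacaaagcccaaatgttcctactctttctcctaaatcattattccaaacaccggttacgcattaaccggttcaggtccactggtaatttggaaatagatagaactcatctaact
NdhO, chr1:28131078-28131327, minus strand: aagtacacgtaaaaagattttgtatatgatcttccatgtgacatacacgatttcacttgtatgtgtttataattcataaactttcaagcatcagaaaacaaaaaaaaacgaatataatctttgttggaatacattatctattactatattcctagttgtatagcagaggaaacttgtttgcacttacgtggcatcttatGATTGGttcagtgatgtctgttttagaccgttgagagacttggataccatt
CCAATC occurred in 1 of the 10 windows, 46 to 51 bases before the start of NdhO on the opposite strand, and in 10.2% of the windows of 27431 nuclear protein-coding genes. CACGTG occurred in 1, that of NdhL, and in 6.49% of all windows, and AGATTCT in 0 of the 10 and 6.23% of all. The letters do not overlap one another in these windows. PGRL1A, PGRL1B and NdhS hold none of the 3, which says only that these letters are not within 250 bases of the annotated start (RefSeq, TAIR10.1). The NdhS window also overlaps the lncRNA gene AT4G07190.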

How the data were processed

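Whole-seedling RNA was sequenced on DNA nanoballs and the authors deposited 1 table of TPM values for 7 libraries. TopHat2, Cufflinks and the genome build TAIR10 are named in the submitters' processing notes. The sources used here give no read counts, depth, annotation release or strand setting, so no interval from counts is printed. In the column of WT replicate 1, 5606 rows follow another gene order than the identifiers. Read in alphabetical order of identifiers, those rows had r = 0.995 across genes with an average over the other 6 columns (0.0546 as deposited), and they were used that way. Genes with at least 1 TPM in at least 3 libraries were kept (19127). limma 3.58.1 (trended eBayes, R 4.3.3) was fitted to log2(TPM + 1), which understates changes of low genes, and to the same values scaled by TMM (unweighted, 30% of log ratios and 5% of mean levels trimmed), with Benjamini-Hochberg adjustment over all kept genes. A call needed adjusted p under 0.05 in the same direction with both. Exact permutation tests were two-sided over 35 divisions. The code was tested on simulated data. All 10 members are named, and from each other list the transcripts called with both scalings or, failing that, the one with the smallest p in TPM. EMB3143 and the other overlapping genes were chosen after their values were seen. Members and lists were chosen with earlier results of these data known. Alternatives covered scaling, pseudocount, filter, variance model, library weights, threshold, reading of WT replicate 1, the replicate block and each library left out. Sequences and loci are from RefSeq TAIR10.1.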

Additional observations from a re-analysis of the deposited data

Results flagged for a closer look

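NdhT stood out for 1 library: in the mutant, replicate 3 (74.7 TPM) lay apart from the others (87.0 to 88.8 TPM), its gap taking up 0.873 of the group's range. The rule was applied in the mutant to all 10 transcripts, the NDH sum, the PGR5 route sum and their ratio, and marked NdhT only. Chance marks about 1 in 20 groups this way, so a mark among that many groups is not unusual. The cause was not tested.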

How the results depend on the processing

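PGRL1A and NdhS were called lower in all 21 alternatives. Leaving out 1 library gave log2 fold changes in TPM of -0.68 to -0.65 and -0.40 to -0.33, and the replicate block -0.66 and -0.33 (limma adjusted p = 0.00278 and 0.0136). The 21 are not independent, since the calls in TPM alone and with TMM alone are the parts of the main call. The fit to 6 libraries without the replicate block is also the fit without mutant replicate 4. With TMM scaling alone the direction in TPM was reversed for NdhL (-0.33), NdhM (-0.034), NdhN (-0.29), NdhO (-0.31), NdhU (-0.24), PGR5 (-0.095) and PGRL1B (-0.20). With quantile normalization it was reversed for NdhL (-0.19), NdhN (-0.26), NdhO (-0.20), NdhU (-0.18), PGRL1B (-0.18) and FD2 (0.051). NdhL reversed without WT replicate 1 (-0.012, with -0.012 to 0.069 leaving out 1 library), and PnsB3 with that column as deposited (1.73). The number of members called higher was 4 in TPM alone and 1, NdhT, with array weights. Genes called lower numbered 978 with TMM alone, 922 with quantile normalization and 320 with WT replicate 1 as deposited (356 to 572 leaving out 1 library). Genes called higher numbered 12046 in TPM alone, 2553 with array weights, 155 at adjusted p under 0.01, 178 with WT replicate 1 as deposited and 162 to 755 leaving out 1 library. With the replicate block 430 genes were called lower and 234 higher, against 450 and 401 in the same 6 libraries without it, a comparison chosen after seeing the data, as were TMM factors over all genes. Deviations from the group means correlated across genes at -0.096, 0.17 and 0.15 between same-numbered WT and mutant libraries. Between differently numbered ones the values ran from -0.24 (WT replicate 3 with mutant replicate 4) to 0.28 (WT replicate 1 with mutant replicate 4). The numbers were not taken as pairs, and whether they mark pairs is not known. The NDH to PGR5 route ratio was 1.14 times WT with geometric means, 1.30 as deposited and 1.26 to 1.27 leaving out 1 library. The cause of these shifts was not tested. Depth is unknown and limits low transcripts most.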
